A study of Mus musculus with 13 samples.

Results

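Mouse Chromosome 2 (mm9) carries 286 protein-coding genes whose symbols begin with *Olfr*, out of 1113 such genes in the GENCODE vM1 annotation. Membership was set by symbol and chromosome alone, but the set was chosen with earlier results of these data known. Each gene was placed by its midpoint on the nearest 4C fragment end, and each end holds a call of pericentromere-associated domain (PAD) or non-PAD for embryonic stem cells (ESCs), neural precursor cells (NPCs), astrocytes (ACs) and thymus. Genes under 500 kb apart were joined, which gave 3 clusters: 28 genes from *Olfr338* to *Olfr368*, 221 genes from *Olfr987* to *Olfr1272* and 37 genes from *Olfr1275* to *Olfr1318*.

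Olfactory receptors are G protein-coupled receptors with which sensory neurons of the nose detect odorants. A mature olfactory neuron expresses a single allele of a single receptor gene, while the remainder of the family is kept silent in heterochromatin. Chromocenters are the clusters of pericentromeric satellite DNA in mouse nuclei, and they are themselves built of heterochromatin.

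Satellite 4C (sat4C) ligates crosslinked DNA fragments to major satellite repeats, so that sequenced fragment ends mark DNA close to a chromocenter. Thymus came from 3 adult male C57BL/6 mice. The ESCs were 3 replicates of the IB10 line of 129/Ola origin, the 2 NPC replicates were derived from these ESCs, and the 2 AC replicates were derived in vitro from the NPCs. All cells were untreated apart from formaldehyde crosslinking. The 3 cultured cell types thus go back to a single ESC line, and strain, culture and tissue cannot be told apart between them and thymus. None of the 4 is an olfactory tissue, and the calls hold no expression with which the labels could be checked against marker genes.

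The table holds 399232 fragment ends, of which 28070 lie on Chromosome 2, with 1 consensus call per cell type. Calls of single replicates and read counts were not analysed here. Depth is therefore unknown, no value below has a replicate error, and no difference between cell types or gene groups was tested. On Chromosome 2, PADs covered 53.3% in ACs, 54.6% in thymus, 54.7% in ESCs and 75.8% in NPCs. The NPC column thus stands apart from the other 3, with 74 PADs on this chromosome against 60 in ESCs, 47 in ACs and 45 in thymus, and the NPC values describe the deposited calls only. How far this coverage belongs to the cells or to the calling was not tested. The count of receptor genes in PADs in all cell types is therefore also given without NPCs, while the other counts over all cell types include them.

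The family is recognizable in its sequence. Most receptors carry the codons for aspartate, arginine and tyrosine (DRY) at the inner end of the third transmembrane helix, a contact with the G protein. These codons, GAC or GAT followed by CGN, AGA or AGG and then TAC or TAT, were searched in frame in the longest coding sequence of each gene. They were found in 249 of 286 genes (87.1%), against 1489 of 22451 other genes with a coding sequence (6.63%), which include the olfactory receptor genes of other chromosomes. Of the 249 stretches of 30 bases around them, 168 were different. As examples, the stretches of the first gene of each cluster are shown, all found by their DRY codons. They are given on the coding strand, with the DRY codons in capitals.
*Olfr338*, cluster 1, chr2:36232643-36232672, plus strand: atggcatatGACAGGTATgtggccatctgc
*Olfr987*, cluster 2, chr2:85171673-85171702, minus strand: atggctgtgGACCGCTACgtggccatctgt
*Olfr1275*, cluster 3, chr2:111071568-111071597, minus strand: atggcctggGACAGATATgtggccatatgc

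The genes are short and mostly without introns in the annotation. Gene length ran from 387 to 12181 bp with a median of 951 bp, coding length from 300 to 1041 bp with a median of 939 bp, and in 237 of 286 genes the longest transcript had 1 exon. The plus strand held 109 genes and the minus strand 177. The GC content of single genes ranged from 30.8% to 53.2% with a median of 41.0%.

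Cluster 1 spans 956 kb (36232298 to 37188253), cluster 2 spans 4952 kb (85171054 to 90122730) and cluster 3 spans 926 kb (111070975 to 111997157). Cluster 2 is the densest, with 44.6 receptor genes per Mb against 29.3 in cluster 1 and 39.9 in cluster 3. The clusters lie 48.0 and 20.9 Mb apart, and the widest gap between neighboring genes of a cluster was 140 kb. Most of this DNA is not receptor sequence, since gene bodies covered 3.33% of cluster 1, 7.0% of cluster 2 and 4.15% of cluster 3. Their sequence is AT-rich, with a GC content of 39.2%, 37.0% and 37.6% against 42.1% over Chromosome 2.

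Fragment ends are thinner in the clusters than on the chromosome, which bears on how finely a gene can be placed. Cluster 1 had 108 fragment ends per Mb, cluster 2 had 147, cluster 3 had 141 and Chromosome 2 had 157. Of the MfeI sites in the genome sequence, those at which a fragment end of the table starts were counted. They were 23.6% of 229, 29.5% of 1235 and 23.7% of 249 for the 3 clusters, against 42.0% of 33164 over the chromosome. MfeI sites at the other side of a fragment end were not counted. MfeI sites themselves were denser in the clusters (240, 249 and 269 per Mb) than on the chromosome (186 per Mb). A fragment end started at a smaller share of them. The part of repeated or duplicated sequence in this was not tested. The midpoint of a receptor gene lay a median of 2.08 kb from its fragment end, nearer than the 3.89 kb of the other genes of Chromosome 2, and 222 of 286 lay within 5 kb. The farthest was *Olfr1270* at 27.5 kb. The genes used 270 different fragment ends, and 16 ends served a pair of genes.

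Most olfactory receptor genes of Chromosome 2 lay in PADs in each cell type. The number in PADs was 252 (88.1%) in ESCs, 271 (94.8%) in NPCs and 280 (97.9%) in both ACs and thymus. Of all 22329 protein-coding genes that were placed, 46.5%, 68.5%, 34.9% and 26.1% lay in PADs in ESCs, NPCs, ACs and thymus. The margin over all genes was narrowest in NPCs, where most of the genome was called PAD, and widest in thymus. The remaining 1559 protein-coding genes of Chromosome 2 gave 37.3%, 74.2%, 28.2% and 26.4%, so that the rest of the chromosome was close to or below the share of all genes except in NPCs.

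**Figure D1:**
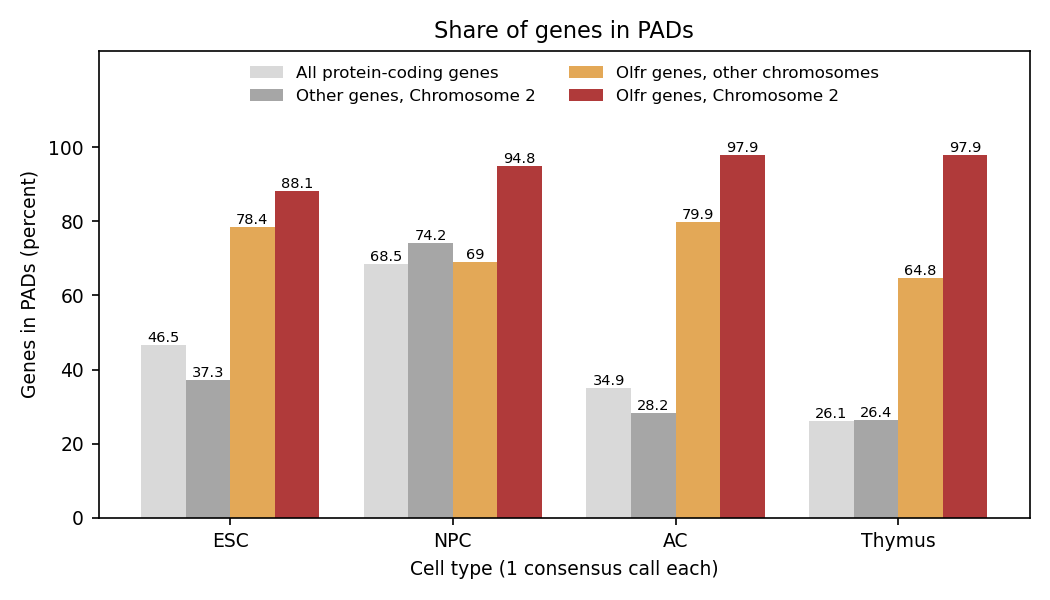
Percent of protein-coding genes in PADs (vertical axis) in each cell type (horizontal axis), from 1 consensus call each and without error bars. Bars stand for all genes, other genes of Chromosome 2, *Olfr* genes of other chromosomes and *Olfr* genes of Chromosome 2, which are highest in all 4 cell types (88.1% to 97.9%).

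These genes do not count as separate observations, because neighbors share a domain. The 252 genes in ESC PADs occupied 5 PADs, the 271 in NPCs 4, the 280 in ACs 4 and the 280 in thymus 3. The shares above thus rest on a handful of domains per cell type.

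In all 4 cell types, 231 of the 286 genes (80.8%) were in PADs, while 14.8% of all protein-coding genes and 15.8% of the other genes of Chromosome 2 (247 of 1559) were. Without NPCs the count was 243, with 17.2% of all genes as background. None of the 286 was non-PAD throughout, and every gene lay in a PAD in at least 2 cell types. The other 55 genes were non-PAD in at least 1 cell type, and they formed 5 combinations of calls in blocks of neighboring genes.

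The most frequent exception was a gene that was non-PAD in ESCs and PAD in the 3 other cell types. It held for 34 genes (11.9%), 8 in cluster 1 and 26 in cluster 2, where 1.26% of all genes had this combination. Non-PAD status in NPCs with PAD status elsewhere followed with 12 genes of cluster 3 (4.2%, background 2.49%). The remaining 9 genes were 3 with PAD status in ESCs and thymus only (background 1.37%), 3 with PAD status in all but thymus (11.1%) and 3 with PAD status in ESCs and NPCs only (12.2%). The last 2 combinations are common in the genome and were rare among these receptor genes. No combination other than PAD throughout occurred in all 3 clusters, and that of non-PAD in ESCs alone was shared by clusters 1 and 2.

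**Figure D2:**
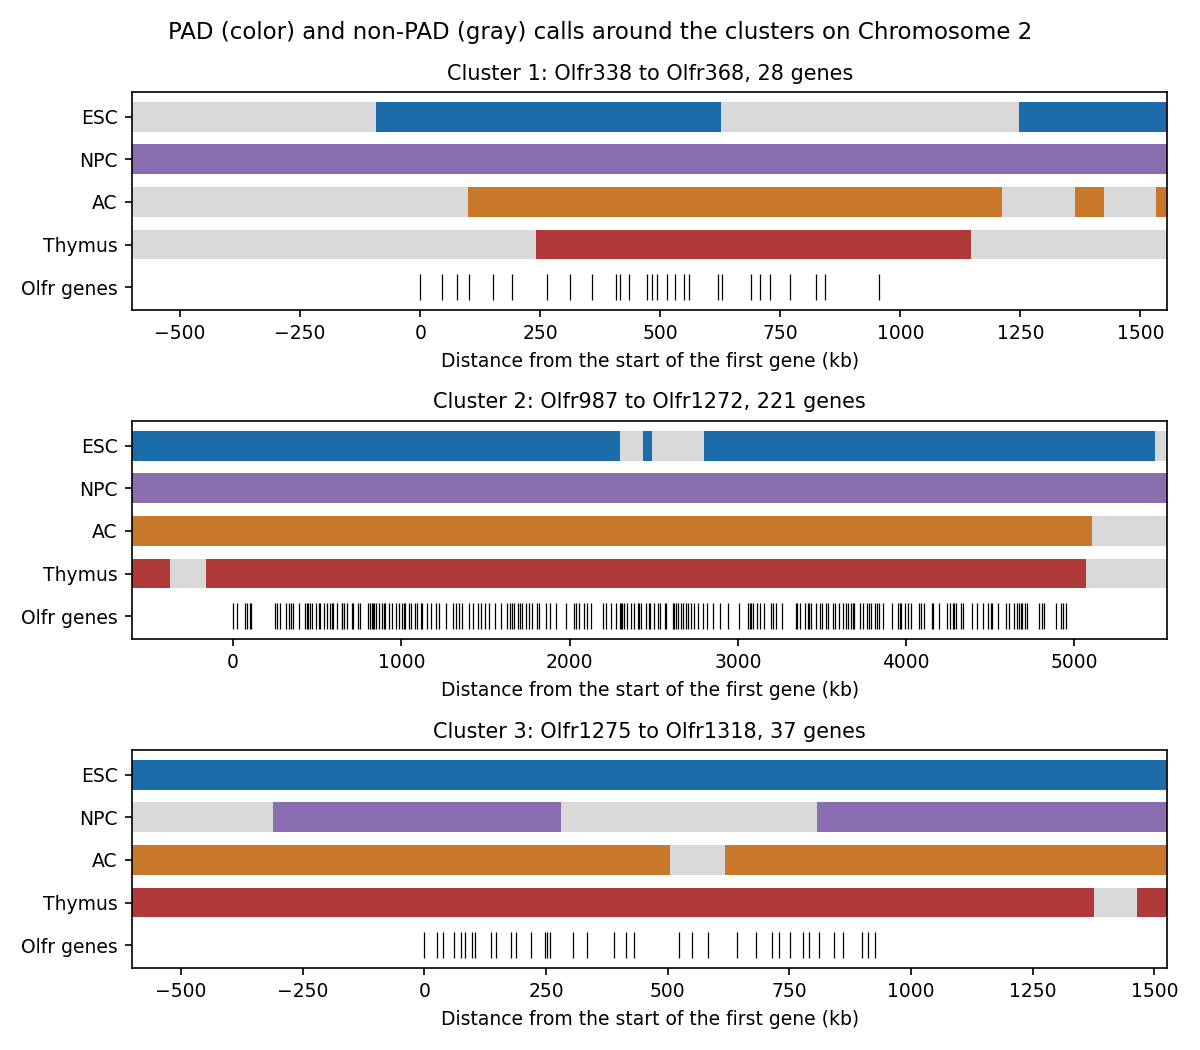
PAD (color) and non-PAD (gray) calls in ESCs, NPCs, ACs and thymus around the 3 clusters. The horizontal axis gives kb from the start of the first gene and ticks mark genes. Cluster 1 has a border in ESCs, ACs and thymus, cluster 2 has 4 borders in ESCs, and cluster 3 has 2 each in NPCs and ACs.

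Cluster 1 was the most divided. Its 28 genes were all in PADs in NPCs, while 20 were in ESCs, 25 in ACs and 22 in thymus. Read from the centromeric side, *Olfr338*, *Olfr339* and *Olfr340* were PAD in ESCs and NPCs and non-PAD in ACs and thymus. *Olfr341*, *Olfr342* and *Olfr344* were PAD except in thymus, the 14 genes from *Olfr345* to *Olfr357* were PAD throughout, and the 8 genes from *Olfr358* to *Olfr368* were PAD except in ESCs. The 2 ends of the cluster thus had opposite calls: the first genes were PAD in ESCs but not in thymus, the last genes PAD in thymus but not in ESCs.

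The PAD over cluster 1 lay at a different place in each of these cell types. It began at 36140472 in ESCs, at 36331908 in ACs and at 36473842 in thymus, and the last of these lay 333 kb farther into the cluster than the first. At the other side it ended at 36858936 in ESCs, at 37379792 in thymus and at 37444603 in ACs, 521 and 586 kb beyond the ESC border. The ESC PAD measured 0.718 Mb, with 87.2% of its length inside the cluster, the AC PAD 1.11 Mb (77.0%) and the thymus PAD 0.906 Mb (78.9%). In these 3 cell types the domain was thus little larger than the genes it held, and non-PADs of 11.4 Mb in ACs and 12.4 Mb in thymus adjoined it on the centromeric side. In NPCs, by contrast, a PAD of 9.41 Mb ran over cluster and surroundings, of which the cluster made up 10.2%.

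The first 3 genes of cluster 1 rest on few calls. The stretch from *Olfr338* to *Olfr340* measured 76.7 kb and held 3 fragment ends (39.1 per Mb), and that from *Olfr341* to *Olfr344* held 6 in 90.3 kb. The stretch that was PAD throughout had 48 in 358 kb. In ACs, the border between *Olfr340* and *Olfr341* fell in a gap of 28.9 kb between fragment ends, so that its position is known no better than that. The fragment ends on either side of the thymus border between *Olfr344* and *Olfr345* lie 0.142 kb apart. At the ESC border between *Olfr357* and *Olfr358* they lie 0.828 kb apart. This spacing is not the precision of a border, because the model behind the calls reads many ends to place it.

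Cluster 2 was PAD over its whole length in NPCs, ACs and thymus. All 221 genes and all 730 fragment ends had this call in the 3 cell types. In ESCs 195 genes and 658 fragment ends (90.1%) were PAD. A run of 26 receptor genes near the middle of the cluster was non-PAD in ESCs, interrupted by 3 genes that were PAD.

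The ESC non-PADs of cluster 2 were small and held olfactory receptor genes only. The first ran from 87473109 to 87606556 (0.133 Mb, 26 fragment ends) over the 9 genes from *Olfr1132* to *Olfr1141*. The second ran from 87661837 to 87968347 (0.307 Mb, 46 fragment ends) over the 17 genes from *Olfr1148* to *Olfr1166*. Between them lay a PAD of 0.0553 Mb and 13 fragment ends with *Olfr152*, *Olfr1143* and *Olfr1145*. This island of PAD between 2 non-PADs is among the smaller ESC PADs of Chromosome 2, ranked 48th by size of 60. On the outer sides, the 103 genes from *Olfr987* to *Olfr1131* lay in a PAD of 10.2 Mb and the 89 genes from *Olfr1167* to *Olfr1272* in a PAD of 2.68 Mb.

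Genes with known odorants fell on both sides. *Olfr73*, whose product responds to eugenol, was non-PAD in ESCs, 93.5 kb from the nearest border, and PAD in NPCs, ACs and thymus. *Olfr74*, in the same stretch, had the same calls at 153 kb from a border. *Olfr1019*, whose product responds to the fox odor compound trimethylthiazoline, was PAD in all 4 cell types, 1791 kb from the nearest ESC border. No expression was measured in these samples, and the odorants are background from other work.

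In sequence measures the 26 genes that were non-PAD in ESCs lay within the range of the other 195 genes of cluster 2. Their GC content ran from 34.9% to 43.9% with a median of 40.0%, against 30.8% to 47.0% and a median of 40.8%. Their median length was 945 bp against 957 bp, and their midpoints lay a median of 1.33 kb from a fragment end against 2.32 kb. The strand was plus in 7 and minus in 19 of them, and plus in 66 and minus in 129 of the others. The 2 non-PAD stretches held 201 and 130 fragment ends per Mb, the outer PAD stretches 157 and 131, and the 3-gene island 283, so that the non-PAD stretches had both a high and the lowest density of the cluster. In cluster 3, ends were thinner where receptor genes were non-PAD in NPCs, with 102, 132 and 121 per Mb against 170 and 148. Cluster 1 was mixed in ESCs. Its ESC non-PAD stretch had 104 per Mb, against 134 in the stretch that was PAD throughout. The stretches from *Olfr338* to *Olfr340* and from *Olfr341* to *Olfr344*, both PAD in ESCs, had only 39.1 and 66.4. The part of fragment end density in the calls was not tested.

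The 4 ESC borders of cluster 2 all fell between genes. The fragment ends on their 2 sides are shown because the call changes between them. They are given as 36 bases of the plus strand of mm9 from the listed start of each end. The restriction site of MfeI or NlaIII is in capitals. Which side of an end was ligated and sequenced is not shown.
ESC PAD, last end after *Olfr1131*, chr2:87472503-87472538: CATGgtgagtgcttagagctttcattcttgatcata
ESC non-PAD, first end before *Olfr1132*, chr2:87473716-87473751: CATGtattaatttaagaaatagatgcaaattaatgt
ESC non-PAD, last end after *Olfr1141*, chr2:87597988-87598023: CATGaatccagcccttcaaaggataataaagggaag
ESC PAD, first end before *Olfr152*, chr2:87615125-87615160: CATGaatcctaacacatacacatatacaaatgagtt
ESC PAD, last end after *Olfr1145*, chr2:87661830-87661865: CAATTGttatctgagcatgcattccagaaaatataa
ESC non-PAD, first end before *Olfr1148*, chr2:87661845-87661880: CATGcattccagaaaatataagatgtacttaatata
ESC non-PAD, last end after *Olfr1166*, chr2:87968293-87968328: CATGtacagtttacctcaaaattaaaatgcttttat
ESC PAD, first end before *Olfr1167*, chr2:87968402-87968437: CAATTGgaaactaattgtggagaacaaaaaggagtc

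The ends on the 2 sides of a border were 1.21, 17.1, 0.015 and 0.109 kb apart in this order. At the third border the sequences overlap, since the ends that start at an MfeI site and at the NlaIII site beside it carry different calls. Borders in the calls are thus given to the single fragment end, although the domain model reads many ends to place them.

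In thymus, cluster 2 and its PAD were nearly the same segment. The PAD ran from 85011160 to 90242811 (5.23 Mb, 780 fragment ends), began 160 kb before the first receptor gene and ended 120 kb after the last, and 94.6% of it lay inside the cluster. Of its 226 protein-coding genes, 221 were olfactory receptor genes. The AC PAD of 13.0 Mb (77320262 to 90275924), the largest AC PAD of the chromosome, began 7851 kb before the first receptor gene, and 38.2% of it lay in the cluster. In NPCs the PAD measured 9.55 Mb (84515828 to 94070099), with 51.8% in the cluster. The distal borders in thymus and ACs lay 33.1 kb apart, while the ESC PAD ended 409 kb beyond that of thymus.

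Cluster 3 was PAD over its whole length in ESCs and thymus. All 37 genes had this call there, and 34 did in ACs and 22 in NPCs. In order along the chromosome, the 16 genes from *Olfr1275* to *Olfr1290* were PAD throughout, the 5 from *Olfr1294* to *Olfr1299* were non-PAD in NPCs, *Olfr1301*, *Olfr1302* and *Olfr1303* were non-PAD in NPCs and ACs, the 7 from *Olfr1305* to *Olfr1311* were again non-PAD in NPCs, and the 6 from *Olfr1312* to *Olfr1318* were PAD throughout. The AC non-PAD was thus nested in the NPC non-PAD.

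The NPC non-PAD of cluster 3 ran from 111351214 to 111878364 (0.527 Mb, 62 fragment ends) and the AC non-PAD from 111576818 to 111688716 (0.112 Mb, 13 fragment ends). Both held olfactory receptor genes and no other protein-coding gene. Cluster 3 was the place where the calls of NPCs, which covered the largest share of the chromosome, left out receptor genes that ESCs and thymus included. By fragment ends, 52.7% of the cluster was PAD in NPCs, 90.1% in ACs and all of it in ESCs and thymus. The domains around it were large, with PADs of 7.84 Mb in ESCs and 5.71 Mb in thymus, of which the cluster made up 11.8% and 16.2%.

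Within the clusters the calls had 11 borders in the 4 cell types together: 3 in cluster 1, 4 in cluster 2 and 4 in cluster 3. None crossed the body of a receptor gene. As gene bodies cover little of the clusters, this count is given as a description only. The receptor genes nearest to a border were *Olfr358* in ESCs (1.7 kb, non-PAD), *Olfr1312* in NPCs (4.35 kb, PAD), *Olfr341* in ACs (3.27 kb, PAD) and *Olfr345* in thymus (22.2 kb, PAD). The farthest were *Olfr1275* in ESCs (3805 kb), *Olfr1240* in NPCs (4764 kb), *Olfr987* in ACs (5101 kb) and *Olfr152* in thymus (2612 kb). The gene deepest inside a PAD was thus a different one in each cell type, and *Olfr152*, the deepest in thymus, lay 16.6 kb from a border in ESCs.

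Over all 286 genes, the median distance to the nearest border was 890 kb in ESCs, 2976 kb in NPCs, 1961 kb in ACs and 1136 kb in thymus. Under 50 kb from a border were 20, 8, 6 and 2 genes in this order. The order of the cell types was the same in clusters 1 and 2 and turned around in cluster 3. In cluster 1 the medians were 148 kb in ESCs, 3365 kb in NPCs, 372 kb in ACs and 241 kb in thymus, and in cluster 3 they were 3415, 111, 247 and 985 kb. In cluster 2 they were 868, 3071, 2689 and 1328 kb. NPCs therefore had the greatest median distance in clusters 1 and 2 and the smallest in cluster 3.

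**Figure D3:**
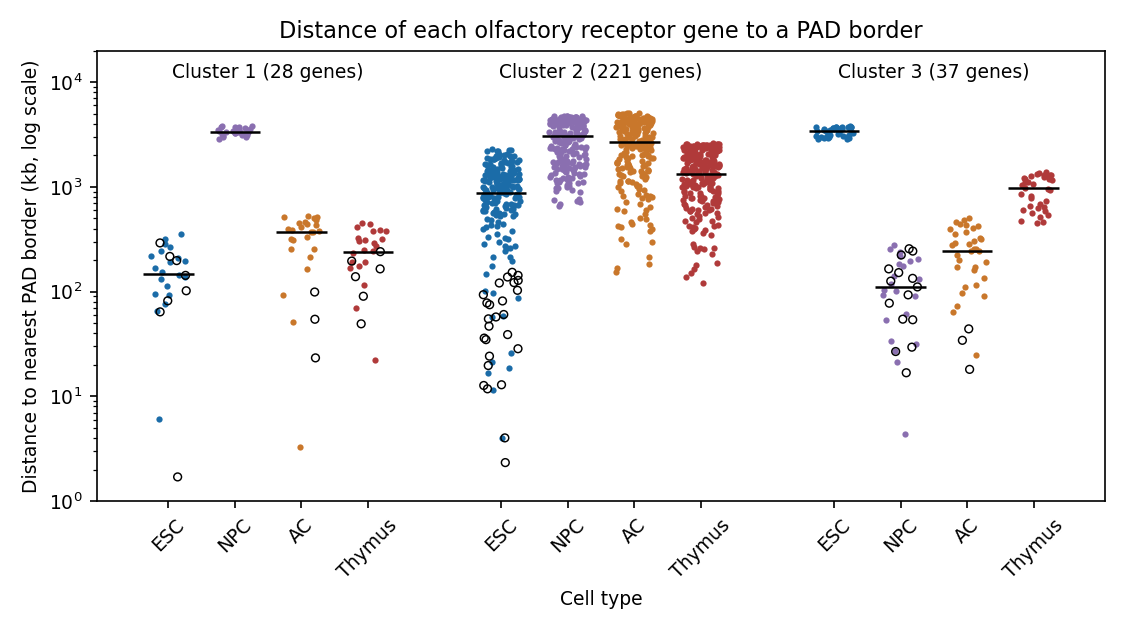
Distance of each receptor gene midpoint to the nearest PAD border (kb, log scale) by cluster and cell type. Filled points are genes in PADs, open circles genes in non-PADs and bars medians. Genes of cluster 3 lie farthest in ESCs (median 3415 kb) and nearest in NPCs (111 kb).

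The genes next to the clusters show where the status of the receptor genes ends and where it runs on. Within 1 Mb of a cluster or inside it lay 87 protein-coding genes that are not olfactory receptors, of which 47 were in PADs in thymus, 52 in ESCs, 54 in ACs and 81 in NPCs. Of all protein-coding genes, 26.1%, 46.5%, 34.9% and 68.5% were in PADs in this order, so these genes were above background in each cell type. The 4 genes inside cluster 2, *4833423E24Rik*, *Pramel7*, *Pramel6* and *Gm4222*, were PAD in all 4 cell types like the receptor genes beside them. *Pramel6* and *Pramel7* belong to a family expressed in early embryos and ESCs, and they lay in the ESC PAD just before the first ESC non-PAD of the cluster.

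On the centromeric side of cluster 1, the 10 flanking genes were non-PAD in ESCs, ACs and thymus and PAD in NPCs. The nearest of them was *Ptgs1*, which codes for a cyclooxygenase, 125 kb from *Olfr338*. On the distal side, *Pdcl*, which codes for a phosducin-like protein, lay 17.3 kb from *Olfr368* and had its calls: non-PAD in ESCs and PAD in the others. Of the 9 genes on this side, 2 were PAD in ESCs, 7 in thymus, 8 in ACs and 9 in NPCs. In ACs and thymus the PAD over the last receptor genes thus ran on into other genes, while in ESCs the PAD over the first ones held no other protein-coding gene.

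Around cluster 2 the contrast lay on the distal side. Its 22 flanking genes were non-PAD in ACs and thymus without exception, 4 were PAD in ESCs and all 22 in NPCs. The nearest was *Ptprj*, a receptor tyrosine phosphatase gene 147 kb from *Olfr1272*. On the centromeric side, all 23 genes were PAD in ESCs and ACs, 20 in NPCs and 17 in thymus. *Lrrc55*, which codes for an accessory subunit of a potassium channel, is the nearest of these at 134 kb and was PAD throughout. The 6 that were non-PAD in thymus followed each other next to *Lrrc55*: *Prg2* and *Prg3* of eosinophil granule proteins, *P2rx3* of an ATP-gated channel, *Ssrp1* of a histone chaperone, *Tnks1bp1* and the apelin receptor gene *Aplnr*.

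Cluster 3 had no such step. All 8 flanking genes on the centromeric side were PAD in ESCs, ACs and thymus and 5 were in NPCs, and all 11 on the distal side were PAD in the 4 cell types. The nearest were *4930430A15Rik* at 1.22 kb and *Lpcat4*, a gene of phospholipid metabolism, at 82.5 kb. The receptor genes that were non-PAD in NPCs thus lay between PADs with other genes on both sides.

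Receptor genes elsewhere in the genome were in PADs less uniformly. Of 827, 536 (64.8%) were in PADs in thymus, 571 (69.0%) in NPCs, 648 (78.4%) in ESCs and 661 (79.9%) in ACs, and 366 (44.3%) were in all 4. The share on Chromosome 2 was above this in each cell type. It was nearest in ESCs (88.1% against 78.4%) and farthest in thymus (97.9% against 64.8%). In no cell type were 74 of the 827 (8.95%) in a PAD, a status that no receptor gene of Chromosome 2 had. This status was also absent on Chromosomes 4, 6, 9, 10, 17 and 19, where at least 1 cell type had all receptor genes in PADs. PAD status in all 4 cell types held for 100 of 129 receptor genes on Chromosome 9 and 23 of 29 on Chromosome 6, so high shares were not particular to Chromosome 2.

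By chromosome, Chromosome 9 had 129 receptor genes, of which 98.4% were PAD in ESCs, 79.1% in NPCs, all in ACs and 98.4% in thymus. The 65 genes of Chromosome 19 gave 86.2%, 89.2%, all and 80.0%, and the 29 genes of Chromosome 6 gave 79.3%, all, 82.8% and 82.8%. Chromosome 7, the other large group with 240 genes, had 87.1%, 77.5%, 90.0% and 71.7%. Its ESC share was close to that of Chromosome 2 and its thymus share was lower. At the other end, the 28 genes of Chromosome 1 were all non-PAD in ESCs, ACs and thymus, and of the 24 genes of Chromosome 4 all were PAD in the cultured cells and 1 in thymus. PAD status of receptor genes is thus not uniform over the family.

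**Figure D4:**
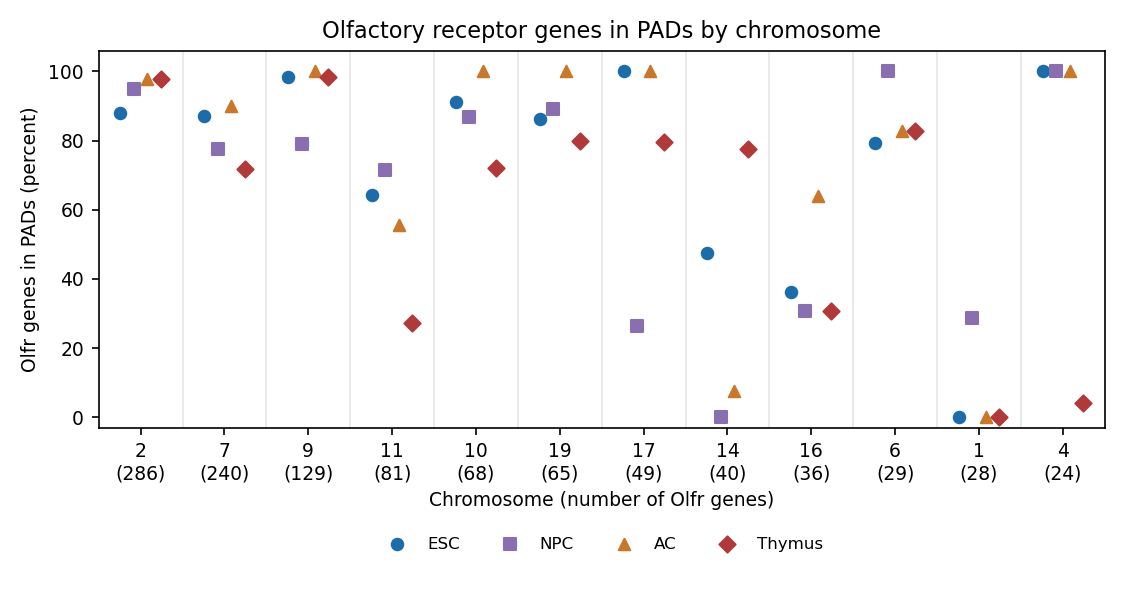
Percent of *Olfr* genes in PADs (vertical axis) for the chromosomes with at least 20 such genes (horizontal axis, gene numbers in brackets). Symbols stand for the 4 cell types. Chromosome 2 lies between 88.1% and 97.9% in all of them, while on Chromosome 4 the share is 4.17% in thymus and all genes in the other cell types.

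Genes by which olfactory neurons choose a receptor or pass on its signal had shares in PADs nearer to those of all genes than to those of the receptor genes in ESCs, ACs and thymus. Of a list of 24, 3 (12.5%) were in PADs in thymus, 8 (33.3%) in ACs, 9 (37.5%) in ESCs and 20 (83.3%) in NPCs, set against 26.1%, 34.9%, 46.5% and 68.5% of all protein-coding genes. The AC and ESC shares are near that background. The 3 in thymus PADs were *Cnga2*, a subunit of the olfactory cyclic nucleotide-gated channel, *Reep1* of a receptor accessory protein and *Lhx2*, and all 3 were PAD in the other cell types too. *Lhx2*, a LIM-homeodomain factor required for olfactory neurons and known to bind enhancers of receptor genes, lies on Chromosome 2 itself (38194801 to 38225253), 1007 kb from the last gene of cluster 1. *Ebf4*, a helix-loop-helix factor gene of the same chromosome (130120905 to 130196217), was PAD in NPCs only. The receptor genes and these genes of their pathway thus had unlike calls in thymus, 280 of 286 against 3 of 24 in PADs.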

How the data were processed

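Sat4C was done by the authors on thymus (3 mice, 6 sets of reads), ESCs (3 replicates), NPCs (2) and ACs (2). They mapped reads to fragment ends of a reduced mm9 genome without the Y chromosome and fitted a two-state hidden semi-Markov model to each replicate with the mhsmm package. Replicates were joined by majority vote, and a pooled virtual replicate settled ties. Which aligner was used is not stated in the sources used here. The deposited values are calls, the word PAD or non-PAD per fragment end, with 1 column for each of 4 cell types and 0 columns per replicate; 0 columns were left unused.

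Runs of fragment ends that share a call made up a domain, and a border was set midway between neighboring ends whose calls differ. Of 22380 protein-coding genes in GENCODE vM1, 22329 were placed by midpoint on the nearest fragment end and 51 were not placed. Since depth is unknown and no replicate values were analysed, values are counts with no test. Percentages of all placed genes serve as background. Computations used Python 3.11.15, numpy 2.4.6, pandas 2.3.3 and matplotlib 3.10.9, and placement and domain building were tested on simulated calls.

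The members and lists were chosen with earlier results of these data known. Named were the first and last gene of each cluster, genes whose call differed from their cluster's majority (the ends of each run where over 10), genes nearest to and farthest from borders, neighbors of and other genes inside clusters, *Olfr73*, *Olfr74*, *Olfr1019*, and genes of the signalling list on Chromosome 2 or in PADs. The flanking genes from *Prg2* to *Aplnr*, and *Olfr1270*, were named after their values were seen. Alternatives were placement by transcription start site, any overlap or longest transcript, short runs absorbed, other cluster gaps and flanks, symbols without suffix, pseudogenes included, and genes near a fragment end only.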

Additional observations from a re-analysis of the deposited data

How the results depend on the processing

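Of 63 values under alternative settings, 60 stayed within 1.5 times the main count and 40 were equal to it. The 3 that moved are counts of flanking genes in PADs within 500 kb instead of 1 Mb, where fewer genes are counted by construction: 34 of 48 in ESCs (52 of 87 before), 46 in NPCs (81) and 30 in thymus (47). Many of the equal values could not have differed. Placement in the domain that holds the midpoint is the same as placement on the nearest fragment end by construction. No border crossed a receptor gene, so start site, overlap and longest transcript had to repeat the calls of the Chromosome 2 receptor genes. The smallest domain with these genes held 13 fragment ends, above the limit of 5 for absorbed runs. Gaps of at most 140 kb within clusters and at least 20.9 Mb between them fixed the cluster number. The settings for olfactory receptor genes of other chromosomes and for the signalling list were chosen after seeing the data. No paired analysis was possible because the calls carry no replicates, and for the same reason no replicate could be left out. The depth behind single calls is unknown, so short stretches with few fragment ends, such as that from *Olfr338* to *Olfr340* with 3, cannot be weighed against long ones.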

Other observations

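The annotation holds 62 *Olfr* pseudogenes on Chromosome 2 besides the protein-coding genes. Of these, 55 were in PADs in ESCs, 57 in ACs, 57 in thymus and 58 in NPCs. The shares of all protein-coding genes were 46.5%, 34.9%, 26.1% and 68.5% in this order. A single *Olfr* entry of the processed transcript type was non-PAD in ESCs and PAD in the other cell types.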
